A study of Mus musculus with 288 samples.

Results

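The daily rhythms of 2 mouse brain regions, hypothalamus and cerebellum, were compared gene by gene on 48 arrays out of the 288 of a survey of 12 tissues. The members were the 24 arrays labelled hypothalamus and the 24 labelled cerebellum, matched by the circadian time (CT) in their titles, which ran from CT18 to CT64 in steps of 2 h. Hour 0 of circadian time is when the subjective day begins, so that CT0 to CT12 is the subjective day and CT12 to CT24 the subjective night. All mice were C57/BL6, with no mutation or drug treatment in the labels. They spent 1 week under 12 h of light and 12 h of darkness and were then kept in constant darkness. Each array held RNA pooled from 3 mice, and there was 1 array per tissue and time point. The labels give neither age nor sex, and they do not say whether both tissues of a time point came from the same mice. The comparison asks which genes cycle in both regions, which cycle in 1, and which cycle in both with another size or peak time.

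Nearly every mammalian cell carries a clock in which the activators CLOCK and BMAL1 switch on their own repressors, the PER and CRY proteins. A second loop of nuclear receptors, the REV-ERB repressors and the ROR activators, sets the daily rise and fall of Arntl, the gene of BMAL1. The hypothalamus holds the suprachiasmatic nucleus, a small paired nucleus that receives light from the retina and sets the phase of the body's other clocks, among many nuclei that control feeding, temperature, sleep and hormones. The cerebellum, which tunes movement, consists mostly of granule cells, and its Purkinje cells carry its output. Both samples were whole regions, in which fewer cells of a type and less RNA per cell cannot be told apart.

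The promoters of 3 genes are shown because their waves peaked at different times in the 2 regions. The sequences are RefSeq's, from build GRCm38.p6, and run from 250 bases before to 50 bases after the annotated start, on the strand of the gene. Capitals mark the E-box CACGTG, to which CLOCK and BMAL1 bind, in Ciart (chr3:95882179-95882478, minus strand), the receptor core site AGGTCA, the core of the element that REV-ERB and ROR proteins bind, in Arntl (chr7:113207261-113207560, plus strand), and the core of the metal response element, TGCACNC or TGCGCNC, in Mt2 (chr8:94172368-94172667, plus strand).
Ciart: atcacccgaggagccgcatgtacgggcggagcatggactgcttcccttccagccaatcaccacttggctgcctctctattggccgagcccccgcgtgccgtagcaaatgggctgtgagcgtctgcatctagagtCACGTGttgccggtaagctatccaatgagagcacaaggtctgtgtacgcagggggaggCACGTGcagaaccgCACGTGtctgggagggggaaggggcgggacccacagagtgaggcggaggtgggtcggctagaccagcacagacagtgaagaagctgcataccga
Arntl: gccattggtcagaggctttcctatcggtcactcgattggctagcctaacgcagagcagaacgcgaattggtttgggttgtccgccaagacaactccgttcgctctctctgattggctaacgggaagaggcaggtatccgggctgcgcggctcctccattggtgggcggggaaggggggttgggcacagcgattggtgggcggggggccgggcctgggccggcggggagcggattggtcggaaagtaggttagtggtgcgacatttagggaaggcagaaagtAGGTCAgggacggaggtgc
Mt2: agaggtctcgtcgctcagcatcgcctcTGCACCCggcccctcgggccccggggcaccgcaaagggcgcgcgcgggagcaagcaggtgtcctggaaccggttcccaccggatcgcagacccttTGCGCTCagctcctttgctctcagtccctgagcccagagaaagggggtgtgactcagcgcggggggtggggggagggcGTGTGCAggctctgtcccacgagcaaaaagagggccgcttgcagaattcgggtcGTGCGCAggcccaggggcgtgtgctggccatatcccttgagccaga
All motifs were searched on both strands, and a match on the opposite strand appears as its reverse complement. Positions are counted from the annotated start to the first printed base of the motif. The Ciart promoter held 3 E-boxes, at -116, -58 and -44, and 7.15% of the 32841 promoters in the table held at least 1. The printed Arntl promoter held 1 core site, at 31, as did 16.3% of promoters, and the other Arntl entry held none. The Mt2 promoter held 4 metal response cores, at -223, -128, -50 and 4, against 25.7% of promoters with at least 1. The D-box TTANGTAA, bound by the DBP family, was in none of these promoters and in 2.32% of all. These matches are a description of the letters and not of binding.

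All levels below are log2 of the deposited, processed intensities, which had been normalized for each tissue apart, so only waves were tested between the regions. Marker levels serve to check the tissue labels and are not a measured difference between regions. Hypothalamic neuron markers (9 of 10 measured) averaged 9.28 in hypothalamus and 6.01 in cerebellum, granule cell markers (10 of 10) 7.37 and 11.1, and Purkinje cell markers (5 of 7) 7.89 and 10.98. The hypothalamus arrays at CT18 and CT36 stood apart from the rest, with median correlations to the other hypothalamus arrays of 0.991 and 0.994, and no cerebellum array did. The CT60 hypothalamus array was the next lowest, at 0.996, and was kept. It had the highest choroid plexus (6.87) and the lowest astrocyte (10.29) marker means of the hypothalamus arrays. Of the 105 genes chosen for naming, 35 had their lowest and 15 their highest hypothalamus value at CT18. Another 14 had their lowest and 18 their highest value at CT36. Hypothalamic neuron markers were lowest at CT36 (8.66). Thalamus markers (5 of 5), of the region that lies above the hypothalamus, ran over the hypothalamus arrays from 9.01 at CT20 to 10.2 at CT22. The CT20 and CT22 arrays did not stand apart and stayed in the fits without CT18 and CT36. The counts that the results lead with are given with and without the CT18 and CT36 arrays.

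A wave with a period of 24 h was called rhythmic at an adjusted p below 0.05 over all 19938 genes. In hypothalamus 359 genes (1.80%) were rhythmic, and in cerebellum 1094 (5.49%). At an unadjusted p below 0.05 the counts were 3492 (17.5%) and 3776 (18.9%). The median spread of a gene around its wave was 0.0842 in hypothalamus and 0.0688 in cerebellum on the log2 scale (SD), and it was larger in hypothalamus for 71.4% of genes. With 1 spread per gene for both regions the order of the counts turned, with 1794 genes called in hypothalamus and 434 in cerebellum. Without the CT18 and CT36 arrays the hypothalamus count was 670, of which 347 were among the 359. The median spread there was then 0.0703, larger than in cerebellum for 51.4% of genes. The median peak-to-trough fold of called genes was 1.20 in hypothalamus and 1.13 in cerebellum, against 1.06 and 1.04 over all genes. The smallest called fold was 1.08 in hypothalamus and 1.05 in cerebellum, and in each region 13 called genes passed 1.5-fold.

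Both regions shared 145 rhythmic genes (0.727% of those tested), which is 40.4% of the hypothalamus list and 13.3% of the cerebellum list. Without both arrays that stood apart, 230 genes were shared, 142 of the 145 among them. Shared genes peaked at like times: 114 peaked within 2 h and 137 within 4 h of each other, or 94.5% within 4 h against 49.0% of all genes. The median difference in peak time, hypothalamus minus cerebellum, was -0.20 h. In 82 genes the peak was earlier in hypothalamus and in 63 later. The median SE of that difference was 1.05 h, and the 95% interval excluded 0 in 36 genes, 24 earlier and 12 later in hypothalamus. The interval excluded 0 in 56 without both arrays that stood apart, with 28 each way. The fitted wave was larger in hypothalamus for 115 of the 145 shared genes (161 of 230 without both arrays), with median folds of 1.23 and 1.18 in hypothalamus and cerebellum. This tally is a description of genes that had to pass in both regions, where the smallest called folds differed as given above.

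The difference between the regions was itself tested for every gene, with both coefficients of the wave together and each region's own spread. Only 14 of 19938 genes (0.0702%) passed, against 1630 (8.18%) at an unadjusted p below 0.05. All 14 were also among the 24 that passed without the CT18 and CT36 arrays. With the thalamus marker mean as a covariate 12 genes passed, 10 of the 14 among them. With choroid plexus and pituitary marker means as covariates 5 genes passed, among them Chil5, Ciart, Mt2 and Stk32a of the 14. The other 10 did not pass in that fit, with an adjusted p of 0.089 for Mrln, 0.0941 for Slc44a5, 0.237 for Arntl and P4ha3, 0.484 for Per2, 0.543 for Tef and Stk17b, 0.555 for Ttll3, 0.779 for Tmem72 and 0.813 for Sqle. With array weights 75 genes passed, also with all 14 among them. Of the 14, 4 were shared and shifted (0.0201% of genes tested), 1 was specific to hypothalamus (0.00502%) and 9 were specific to cerebellum (0.0451%). Among the 4 shifted genes, 3 also differed in the size of the wave (0.0150%). A call in 1 region alone was thus seldom a shown difference. Of 214 genes called in hypothalamus alone, 213 did not pass the test of the difference. Of these 214, 99 had an unadjusted p below 0.05 in cerebellum, against 18.9% of all genes. Of 949 called in cerebellum alone, 940 did not pass. Of these 949, 373 had an unadjusted p below 0.05 in hypothalamus, against 17.5% of all genes. The count of differing genes was sensitive to single time points: it was 8 without CT28, 25 without CT36 and 6 without CT38.

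Clock genes had mostly larger and later fitted waves in cerebellum than in hypothalamus. Of 29 measured genes in the clock lists, 23 were called in cerebellum and 11 in hypothalamus, where 1.80% of all genes were called and in cerebellum 5.49%. The same 11 were shared. The clock lists, like the other function lists below, were chosen with earlier results of these data known, so their counts are a description. The fold was larger in cerebellum in 23 of 29, and the median over the 11 was 1.53 there and 1.32 in hypothalamus. In 10 of these 11 the hypothalamus peaked earlier, by a median of 1.42 h, written as a difference of -1.42 h. The other 134 shared genes had a median difference of -0.13 h, with 72 earlier in hypothalamus. Without the CT18 and CT36 arrays, 9 of the 11 were earlier with a median of -1.14 h. Of the 12 clock genes called in cerebellum alone, 9 had an earlier fitted peak in hypothalamus, and the interval of the difference excluded 0 for Clock, Cry2 and Tef. Without the CT18 and CT36 arrays it included 0 for Clock (-4.33 to 0.44 h) and Tef (-6.54 to 1.54 h) and excluded it for Cry2 (-5.97 to -1.01 h). The difference test passed for 4 of the 29: Arntl, Per2, Ciart and Tef.

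**Figure D1:**
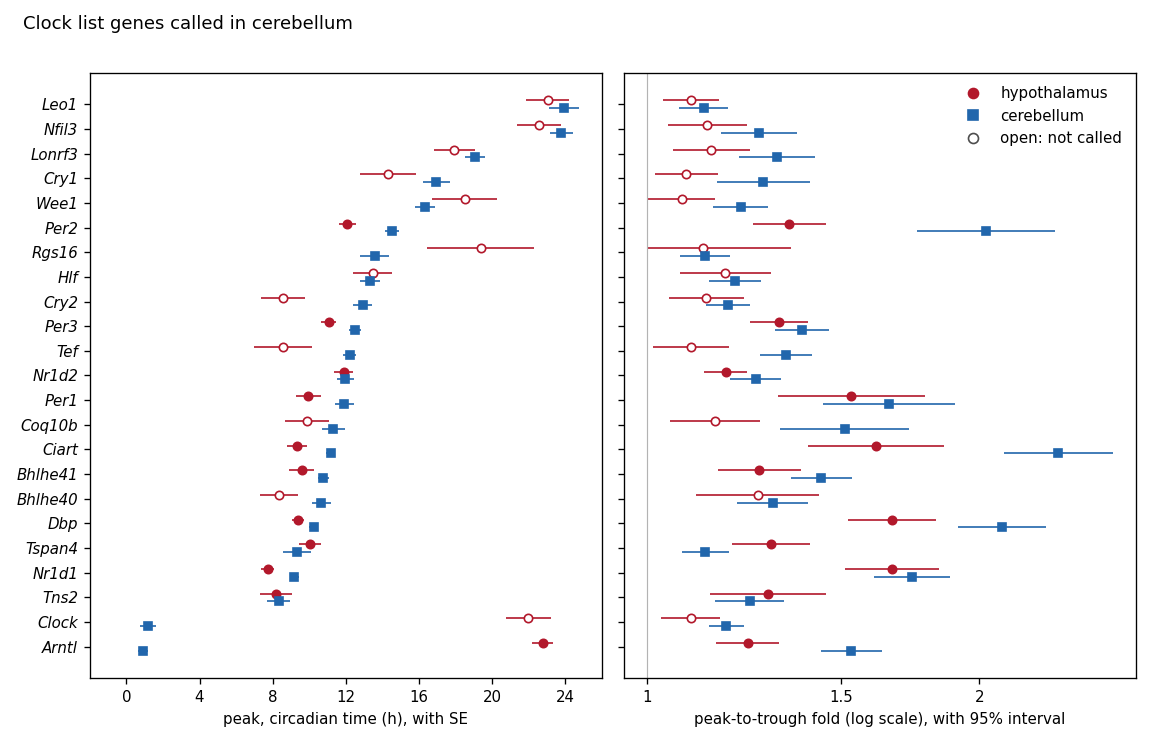
Peak time with its SE (left, circadian time in h) and peak-to-trough fold with its 95% interval (right, log axis) of the 23 clock list genes called in cerebellum, in hypothalamus (circles) and cerebellum (squares). Open markers were not called, and the time axis is a circle, so the hypothalamus peaks of Arntl at CT22.8 and Clock at CT22.0 lie shortly before the cerebellum peaks at CT0.92 and CT1.19.

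Among the activators, Arntl (probe set 10556463) ran in hypothalamus from 7.65 at CT34 over a median of 7.84 to 8.14 at CT22. In cerebellum it ran from 8.18 at CT58 over 8.47 to 8.88 at CT28. The highest hypothalamus array, which also had the highest thalamus marker mean (10.2), lay at the end of the subjective night. The highest cerebellum array lay in the morning that followed. The fitted fold was 1.23 (95% interval 1.16 to 1.32, peak CT22.8, SE 0.58 h, adjusted p = 0.00145) in hypothalamus and 1.53 (1.44 to 1.63, peak CT0.92, SE 0.28 h, adjusted p = 5.73e-10) in cerebellum. The peak was earlier in hypothalamus by 2.16 h (difference -2.16 h, interval -3.46 to -0.86), and the amplitude was smaller (log2 ratio -1.02, -1.51 to -0.53). The difference in rhythm passed (adjusted p = 0.00366). Fitted on each day alone, the gap was -2.20 h and -2.36 h, and without the CT18 and CT36 arrays it was -2.66 h (adjusted p = 7.29e-05). Clock, the partner of BMAL1, had a fold of 1.18 (1.14 to 1.22, peak CT1.19, adjusted p = 2.44e-06) in cerebellum and 1.10 (1.03 to 1.16, peak CT22.0, adjusted p = 0.194) in hypothalamus. Its difference did not pass (adjusted p = 0.374), although it did with array weights (0.0265). Arntl2, a paralog of Arntl, was called in neither region.

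The period genes, which encode the repressors of BMAL1 and CLOCK, were called in both regions. Per2 (probe set 10356601) ran in hypothalamus from 7.62 at CT26 over a median of 7.96 to 8.29 at CT36. In cerebellum it ran from 7.48 at CT28 over 8.49 to 9.13 at CT38. The highest hypothalamus array is one that stood apart, and without both the highest was 8.24 at CT34. The cerebellum arrays covered the wider range. The fold was 1.35 (1.25 to 1.45, peak CT12.1, SE 0.48 h, adjusted p = 0.000162) in hypothalamus against 2.03 (1.75 to 2.34, peak CT14.5, SE 0.38 h, adjusted p = 5.52e-07) in cerebellum. The peak differed by -2.44 h (-3.67 to -1.21) and the log2 ratio of amplitudes was -1.25 (-1.72 to -0.78). The difference passed (adjusted p = 0.0037), and the peak difference was -2.57 h and -2.34 h on the first and the second day. Without the CT18 and CT36 arrays it was -2.07 h (adjusted p = 0.00317). Per1 and Per3 had waves of more alike size. Per1 varied 1.53-fold (peak CT9.96) in hypothalamus and 1.66-fold (peak CT11.9) in cerebellum, a peak difference of -1.97 h (-3.66 to -0.28). It was -1.23 h without both arrays that stood apart (-2.67 to 0.20), an interval that includes 0. Per3 varied 1.32-fold (peak CT11.1) and 1.38-fold (peak CT12.5), a difference of -1.42 h (-2.46 to -0.38). Neither passed the test of the difference over all genes (adjusted p = 0.621 and 0.495).

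The cryptochromes, the partners of the PER proteins, were called in cerebellum alone. Cry1 had a fold of 1.27 (peak CT16.9, adjusted p = 0.00544) there and 1.09 (adjusted p = 0.299) in hypothalamus, and on ranks its cerebellum call was lost (adjusted p = 0.0576). Cry2 had 1.18 (peak CT12.9, adjusted p = 7.18e-05) and 1.13 (peak CT8.56, adjusted p = 0.162). Their differences did not pass (adjusted p = 0.461 and 0.347), so a cerebellum-specific rhythm was not shown for either.

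The auxiliary repressors act on the same activators. Ciart, also known as CHRONO, binds BMAL1 and represses it, and its promoter is the one with 3 E-boxes shown above. Its probe set 10373452 ran in hypothalamus from 8.04 at CT18 over 8.48 to 9.27 at CT36. Both extremes are the arrays that stood apart, without which it ran from 8.24 at CT48 to 9.05 at CT58. In cerebellum it ran from 8.03 at CT24 over 8.59 to 9.49 at CT60. The fold was 1.61 (1.40 to 1.86, peak CT9.33, SE 0.55 h) in hypothalamus and 2.36 (2.11 to 2.64, peak CT11.2, SE 0.25 h) in cerebellum, which was the largest among the clock genes. The peak differed by -1.84 h (-3.07 to -0.61), the log2 ratio of amplitudes was -0.84 (-1.31 to -0.38), and the difference passed (adjusted p = 0.0185). Without both arrays the peak differed by -1.89 h (adjusted p = 0.000311), and without CT38 the call was lost (adjusted p = 0.0897). The other probe set of Ciart gave folds of 1.80 and 2.32, peaks at CT9.24 and CT11.4, and an adjusted p of 0.0806 when every probe set was tested. Bhlhe41, a repressor that competes for E-boxes, varied 1.26-fold (peak CT9.59) and 1.44-fold (peak CT10.8) in hypothalamus and cerebellum, with an adjusted p of 0.488 for the difference. Its paralog Bhlhe40 was called in cerebellum alone (1.3-fold, peak CT10.7), with 1.26-fold and an adjusted p of 0.0997 in hypothalamus.

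**Figure D2:**
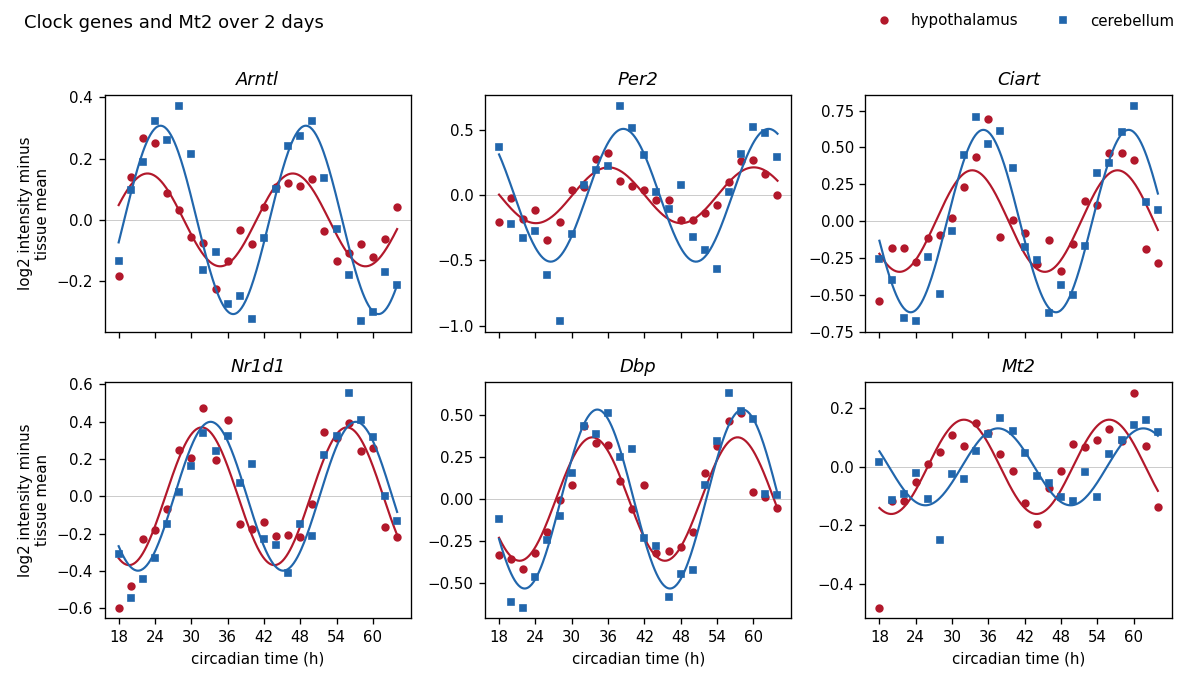
Log2 intensity minus the tissue mean against circadian time (h) for 5 clock genes and Mt2, with 1 point per array and lines for the fitted 24 h waves, in hypothalamus (circles) and cerebellum (squares). The waves of Arntl, Per2 and Ciart are flatter and earlier in hypothalamus, by 2.16, 2.44 and 1.84 h, those of Nr1d1 are of like size, and Mt2 peaks at CT7.96 in hypothalamus and CT13.6 in cerebellum.

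The REV-ERB genes, whose products repress Arntl, were shared. Nr1d1 ran in hypothalamus from 9.61 at CT18 over 10.1 to 10.7 at CT32, and in cerebellum from 10.1 at CT20 over 10.7 to 11.2 at CT56. The fold was 1.67 (1.51 to 1.84, peak CT7.72) in hypothalamus and 1.74 (1.61 to 1.88, peak CT9.19) in cerebellum, with a log2 ratio of amplitudes of -0.11 (-0.45 to 0.23). Its peak differed by -1.47 h (-2.36 to -0.58), while the joint test of size and time did not pass (adjusted p = 0.427; 0.0373 with array weights). Nr1d2 peaked at CT11.9 and CT12.0, a difference of -0.10 h (-1.46 to 1.25). Rora and Rorb, the activators at the same element, were called in neither region.

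Among the clock-driven transcription factors of the PAR bZIP family, Dbp ran in hypothalamus from 9.02 at CT22 over 9.44 to 9.94 at CT58, and in cerebellum from 8.67 at CT22 over 9.34 to 9.95 at CT56. Its fold was 1.67 (1.52 to 1.83, peak CT9.41) and 2.10 (1.91 to 2.30, peak CT10.2), and the difference did not pass (adjusted p = 0.182). Tef was the member that differed. It ran in cerebellum from 9.24 at CT50 over 9.51 to 9.80 at CT36, and in hypothalamus from 8.93 at CT18 over 9.28 to 9.40 at CT58. Its fold was 1.34 (1.27 to 1.41, peak CT12.2, adjusted p = 7.39e-08) in cerebellum and 1.10 (1.01 to 1.19, adjusted p = 0.34) in hypothalamus, with an adjusted p of 0.026 for the difference. Since the hypothalamus wave was not called, its peak time is poorly defined. The difference call was lost without each of 7 time points in turn (highest adjusted p = 0.115, without CT38). Hlf and Nfil3, the repressor that binds the same D-boxes, were called in cerebellum alone, and neither differed between the regions (adjusted p = 0.981 and 0.689). Hlf peaked at CT13.5 and CT13.3, a difference of 0.13 h (-2.30 to 2.57).

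Of 10 other clock outputs, 7 were called in cerebellum, where 5.49% of all genes were, and 2 in hypothalamus, where 1.80% were. Since the list was chosen with earlier results of these data known, these counts are a description. None of the 10 differed (smallest adjusted p = 0.358). Tspan4, a membrane tetraspanin, and Tns2, a focal adhesion protein, were the 2 shared ones. Both had larger fitted folds in hypothalamus, 1.3 against 1.13 for Tspan4 and 1.29 against 1.24 for Tns2. The hypothalamus call for Tns2 (adjusted p = 0.0485) was lost on ranks (0.0572), with a straight line over time (0.0837) and with all probe sets (0.0505). It was also lost with added 12 h and 8 h waves (0.0624) and with choroid plexus and pituitary marker covariates (0.144). The cerebellum call for Tspan4 was lost with 1 spread for both regions (adjusted p = 0.0897) and on ranks (0.0593). Wee1, a kinase that delays mitosis, varied 1.22-fold in cerebellum (peak CT16.3) and 1.07-fold in hypothalamus. Coq10b, a protein of coenzyme Q handling, varied 1.51-fold in cerebellum (peak CT11.3) and 1.15-fold in hypothalamus (adjusted p = 0.184).

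**Figure D3:**
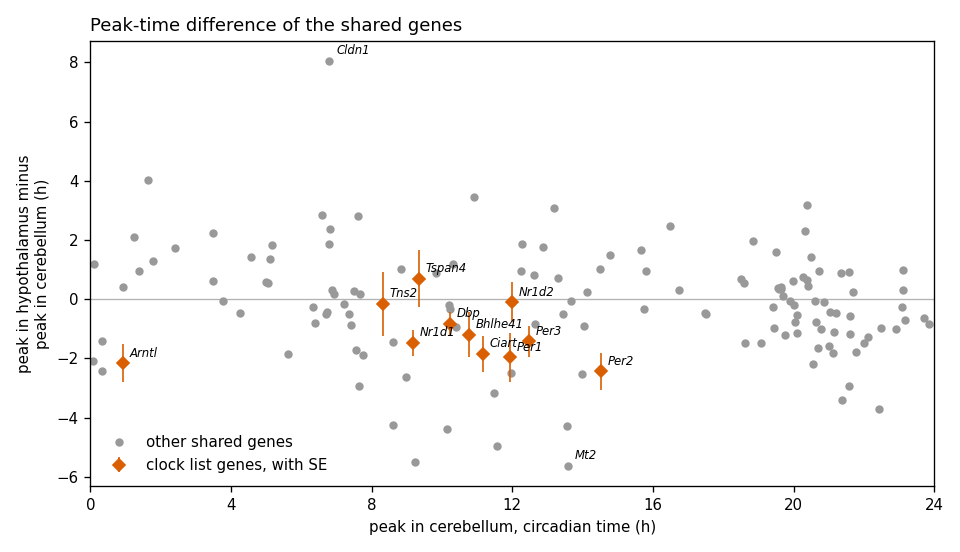
Peak time in hypothalamus minus peak time in cerebellum (h, vertical) against the peak time in cerebellum (circadian time in h, horizontal) for the 145 shared genes, 1 point each. Clock list genes are diamonds with the SE, and 10 of 11 lie below 0, between -2.44 h for Per2 and 0.69 h for Tspan4, with Mt2 at -5.63 h and Cldn1 at 8.05 h as the outermost genes.

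Outside the clock lists, 1 gene passed as shifted. Mt2 (probe set 10574023) encodes a metallothionein, a small protein that binds zinc and copper and is induced by metals and by glucocorticoids. In hypothalamus it ran from 11.8 at CT18 over 12.4 to 12.6 at CT60, and without the arrays that stood apart from 12.1 at CT44. In cerebellum it ran from 12.1 at CT28 over 12.3 to 12.5 at CT38. At CT28 the cerebellum was thus at its lowest, while the hypothalamus value, 12.4, was at its median. The fold was 1.25 (1.16 to 1.35, peak CT7.96, SE 0.62 h, adjusted p = 0.00272) in hypothalamus and 1.20 (1.15 to 1.25, peak CT13.6, SE 0.41 h, adjusted p = 2.44e-06) in cerebellum. The peaks differed by -5.63 h (-7.13 to -4.14), and by -5.93 h and -5.31 h on the first and the second day. The amplitudes did not differ beyond their error (log2 ratio 0.29, -0.27 to 0.86). The difference in rhythm passed (adjusted p = 0.00239), also without both arrays that stood apart (-5.23 h, adjusted p = 6.24e-05) and without any single time point (adjusted p up to 0.0128).

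Mt1, the neighbouring metallothionein gene, was shared too. It varied 1.22-fold (1.14 to 1.31, peak CT9.28) in hypothalamus and 1.19-fold (1.13 to 1.26, peak CT13.6) in cerebellum. Its peaks differed by -4.28 h (-6.03 to -2.54), in the direction of Mt2, and its joint test did not pass (adjusted p = 0.107). Probe sets of such similar genes can share signal, and the 2 genes are therefore not independent observations.

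The metallothioneins were fixed in a list of the glucocorticoid response, the genes that rise when corticosterone binds its receptor. Its median folds were 1.22 and 1.19 in hypothalamus and cerebellum, against 1.06 and 1.04 over all genes. Of its 17 measured members 7 were called in each region and 5 in both: Per1, Zbtb16, Tsc22d3, Mt1 and Mt2. Of all genes, 1.80% were called in hypothalamus, 5.49% in cerebellum and 0.727% in both. Zbtb16, a zinc finger transcription factor, ran in hypothalamus from 8.06 at CT24 over 8.73 to 9.96 at CT36, and in cerebellum from 7.22 at CT28 over 8.13 to 9.14 at CT60. Its fold was 1.81 (1.45 to 2.25, peak CT12.9) and 1.98 (1.61 to 2.44, peak CT13.4), with a peak difference of -0.51 h (-2.30 to 1.28). Without both arrays that stood apart the hypothalamus fold was 1.68 and the peak difference 0.19 h. Tsc22d3, the glucocorticoid-induced leucine zipper, peaked at CT13.6 and CT13.7 with folds of 1.39 and 1.36, a difference of -0.06 h (-1.89 to 1.76). Sgk1, a kinase that regulates ion channels, was called in hypothalamus alone (1.83-fold, peak CT11.4, adjusted p = 0.0404), with 1.29-fold, a peak at CT11 and an adjusted p of 0.0515 in cerebellum. The 5 shared genes peaked between CT11.9 (Per1) and CT13.7 in cerebellum and between CT7.96 (Mt2) and CT13.6 in hypothalamus. Fkbp5, a cochaperone of the glucocorticoid receptor, and Sult1a1, a sulfotransferase, were called in cerebellum alone, with peaks at CT11.95 and CT13.2. Ddit4, an inhibitor of growth signalling, was called in hypothalamus alone, with its peak at CT10.2. In hypothalamus 8 of the list were called without both arrays that stood apart.

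Fabp7, Opalin and Cldn5 were among the shared genes with large waves. Fabp7, the fatty acid binding protein of astrocytes and radial glia, had the largest hypothalamus wave of the 145 shared genes. It ran there from 10.8 at CT62 over 11.3 to 11.8 at CT28, and in cerebellum from 10.6 at CT18 over 11.1 to 11.5 at CT28. Its fold was 1.91 (1.78 to 2.04, peak CT3.79, SE 0.20 h, adjusted p = 3.56e-12) in hypothalamus and 1.57 (1.47 to 1.67, peak CT4.24, SE 0.27 h, adjusted p = 2.83e-10) in cerebellum. The peaks differed by -0.45 h (-1.12 to 0.22). The log2 ratio of amplitudes was 0.52 (0.26 to 0.77), while the joint test over all genes did not pass (adjusted p = 0.136). Both regions were highest at CT28. The astrocyte marker list (8 of 8 measured) had waves of 1.04-fold with a peak at CT21.0 in hypothalamus and 1.03-fold at CT16.3 in cerebellum.

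Opalin, a membrane protein of myelinating oligodendrocytes, ran in hypothalamus from 7.44 at CT18 over 8.19 to 8.70 at CT54, and in cerebellum from 6.44 at CT42 over 6.86 to 7.33 at CT54. Its fold was 1.65 (1.41 to 1.93, peak CT5.58) and 1.47 (1.33 to 1.62, peak CT6.40), and without both arrays that stood apart the hypothalamus fold was 1.57. The oligodendrocyte marker list, which holds Opalin (11 of 12 measured), had 24 h waves of 1.09-fold with a peak at CT4.82 in hypothalamus (array means from 10.2 to 10.6) and 1.05-fold at CT6.05 in cerebellum (9.57 to 9.74). Cldn5, the tight junction protein of brain endothelium, varied 1.5-fold (1.34 to 1.68, peak CT22.5) and 1.41-fold (1.28 to 1.55, peak CT23.2). The endothelium list, which holds Cldn5 (8 of 9 measured), had waves of 1.10-fold at CT23.3 (8.10 to 8.49) and 1.11-fold at CT23.7 (8.16 to 8.37). No marker was at 0, since the lowest deposited intensity was 6.9. The part of these marker means in the waves of Opalin and Cldn5 was not tested.

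**Figure D4:**
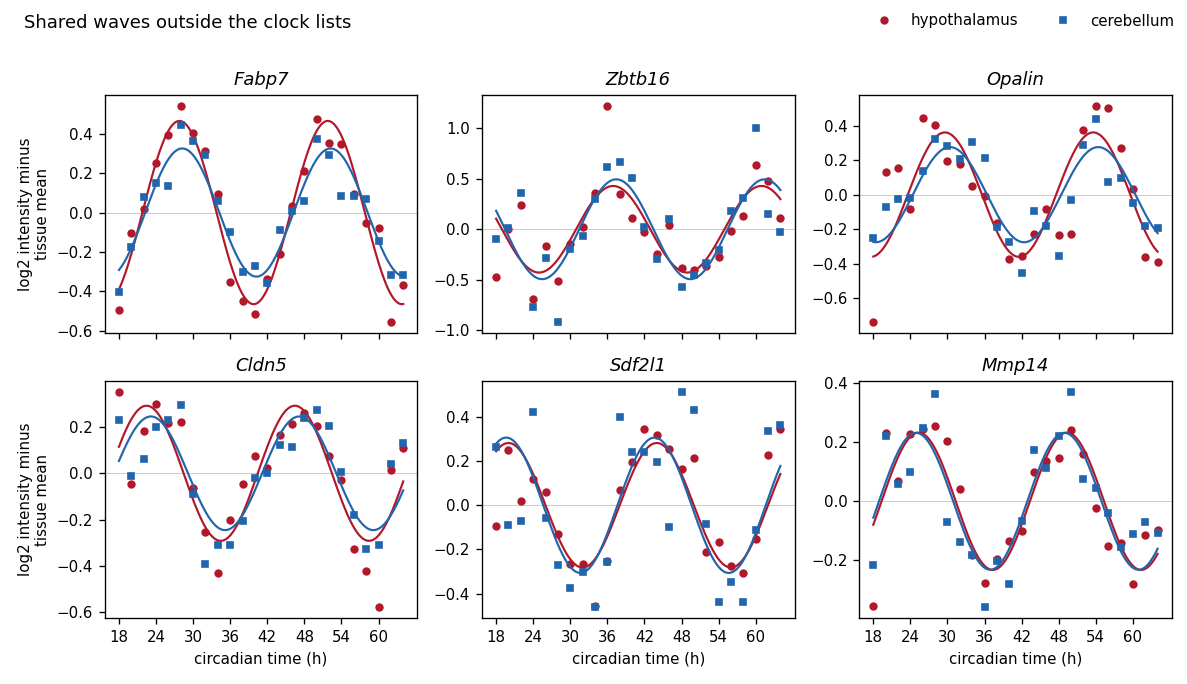
Log2 intensity minus the tissue mean against circadian time (h) for 6 shared genes outside the clock lists, with 1 point per array and lines for the fitted 24 h waves, in hypothalamus (circles) and cerebellum (squares). The waves of both regions run together, as for Fabp7, which peaks at CT3.79 in hypothalamus and CT4.24 in cerebellum.

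Mmp14, a membrane-bound protease that cuts collagen, had the same fold of 1.38 (1.27 to 1.5) in both regions and peaked at CT1.33 and CT0.93. Ifit3, an interferon-induced gene, varied 1.52-fold (peak CT14.1) in hypothalamus and 1.39-fold (peak CT12.3) in cerebellum. Its peak difference of 1.86 h had an interval that just excluded 0 (0.0054 to 3.71), without a pass of the joint test (adjusted p = 0.70). The difference was 1.01 h without both arrays that stood apart (-0.56 to 2.58), an interval that includes 0.

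Endoplasmic reticulum chaperones, which fold secreted proteins, had 8 shared members, the most of the 22 function lists, which held from 3 to 31 measured genes. Over all genes 1.80% were called in hypothalamus, 5.49% in cerebellum and 0.727% in both. Of 17 measured, 10 were called in hypothalamus (12 without both arrays that stood apart), 13 in cerebellum and 8 in both (10), with no difference between the regions (smallest adjusted p = 0.567). The median fold of the list was 1.18 in each region, against 1.06 and 1.04 over all genes. The 8 peaked between CT19.8 and CT21.9 in hypothalamus and between CT19.6 and CT20.5 in cerebellum, and none of them was earlier in hypothalamus by its fitted peak. The largest gap was 1.42 h, for the calcium-binding chaperone Calr, with an interval of -0.10 to 2.95 h. Sdf2l1, a partner of the chaperone BiP, ran in hypothalamus from 8.16 at CT34 over 8.65 to 8.96 at CT64 and in cerebellum from 8.08 at CT34 over 8.46 to 9.05 at CT48. Its fold was 1.48 (1.33 to 1.64) and 1.53 (1.29 to 1.82). Hspa5, which encodes BiP, varied 1.3-fold (1.21 to 1.40) and 1.28-fold (1.16 to 1.40). Herpud1, which helps to clear misfolded proteins, peaked elsewhere, at CT13.4 in cerebellum (1.16-fold, adjusted p = 0.00151).

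Of 16 cytosolic heat shock genes, 7 were called in each region and 4 in both, where 1.80% of all genes were called in hypothalamus and 5.49% in cerebellum. Without both arrays that stood apart, the hypothalamus count was 10 and the shared count 6. The median fold was 1.19 in hypothalamus and 1.09 in cerebellum. The 4 were Chordc1, Hspb1, Hspd1 and Hsph1, with peaks between CT19.2 and CT21.1 in hypothalamus and between CT18.5 and CT22.0 in cerebellum. The other probe set of Hspd1 was not called in cerebellum when every probe set was tested (adjusted p = 0.192). Chordc1, a cochaperone of HSP90, varied 1.60-fold (1.43 to 1.78, adjusted p = 2.76e-05) in hypothalamus and 1.27-fold (1.14 to 1.42, adjusted p = 0.0178) in cerebellum. Stip1 and Ahsa1, other cochaperones of HSP90, were called in hypothalamus alone (1.21-fold at CT22.3 and 1.26-fold at CT20.2), with 1.08-fold and 1.09-fold in cerebellum. Neither differed between the regions (adjusted p = 0.201 and 0.29). The small heat shock protein Hspb1 varied 1.42-fold and 1.33-fold and peaked at CT19.2 and CT18.5.

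Cold-inducible RNA-binding proteins respond to small falls in temperature. Cirbp varied 1.34-fold (1.22 to 1.48, peak CT9.21) in hypothalamus and 1.44-fold (1.27 to 1.64, peak CT6.83) in cerebellum. Its peak was thus later in hypothalamus, by 2.39 h (0.64 to 4.14), opposite to the clock genes, and by 2.21 h and 2.27 h on the first and the second day. Rbm3, its relative, peaked at CT11 in hypothalamus (1.3-fold, adjusted p = 0.0527; 0.0186 without both arrays that stood apart) and CT8.22 in cerebellum (1.32-fold, adjusted p = 0.00392), a difference of 2.81 h (0.50 to 5.12). Neither passed the joint test over all genes (adjusted p = 0.542 and 0.637). The hypothalamus call of Rbm3 depended on the probe set. When every probe set was tested, 10603469 was called there (adjusted p = 0.0366) and 10358454 was not (0.0623). Their peak differences were 3.81 h and 3.57 h, and neither passed the joint test (adjusted p = 0.457 and 0.506).

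Other shared genes had gaps of several hours without a pass of the joint test. Cldn1, a tight junction protein, peaked at CT14.9 in hypothalamus (1.16-fold, adjusted p = 0.0376) and CT6.80 in cerebellum (1.39-fold, adjusted p = 0.0488), a difference of 8.05 h (5.43 to 10.7, adjusted p = 0.136). It was the 1 shared gene with a gap over 6 h. Tubb2b, a tubulin of neurons, peaked at CT3.75 and CT9.25, a difference of -5.50 h (-7.86 to -3.13, adjusted p = 0.155). Npy1r, a receptor for neuropeptide Y, peaked at CT18.0 in hypothalamus (1.31-fold) and CT21.4 in cerebellum (1.22-fold), a difference of -3.40 h (-5.23 to -1.56, adjusted p = 0.334). The mean level of Npy1r in cerebellum, 5.25, lay below the median of all genes there, 7.06. Cldn1 lay below the median of all genes in both regions, with means of 5.66 in hypothalamus (median 7.21) and 6.05 in cerebellum. Cldn1 and Tubb2b were chosen after their values were seen.

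The 1 hypothalamus-specific gene was P4ha3 (probe set 10555323), which encodes a subunit of prolyl 4-hydroxylase, the enzyme that modifies collagen. In hypothalamus it ran from 6.93 at CT18 over 7.17 to 7.52 at CT28, and from 7.09 at CT58 without the arrays that stood apart. In cerebellum it lay between 4.91 at CT56 and 5.12 at CT58 around a median of 5.01, below the median of all genes there, 7.06. The hypothalamus wave peaked at CT4.22 on the first day and CT4.16 on the second. The fold was 1.23 (1.13 to 1.33, peak CT4.19, adjusted p = 0.0152) and 1.04 (1.0 to 1.09, adjusted p = 0.465), with an adjusted p of 0.0256 for the difference. The call was lost without each of 6 time points in turn (adjusted p up to 0.128, without CT28), and with the choroid plexus and pituitary markers as covariates (0.237). Meningeal fibroblast markers (8 of 8 measured, array means from 6.74 to 7.97 in hypothalamus and from 7.65 to 7.87 in cerebellum) had a 24 h wave of 1.33-fold in hypothalamus with a peak at CT19.3, and their part in P4ha3's wave was not tested.

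Among the 9 cerebellum-specific genes, Chil5, a chitinase-like protein, had the smallest p of all genes tested. In cerebellum it ran from 7.20 at CT60 over 7.43 to 8.02 at CT44, high in the subjective night of both days. In hypothalamus it stayed between 4.36 and 4.6, below the median of all genes there, 7.21. The fold was 1.37 (1.26 to 1.5, peak CT20.6, adjusted p = 7.18e-05) in cerebellum and 1.07 (1.02 to 1.12, adjusted p = 0.206) in hypothalamus, with an adjusted p of 0.000256 for the difference. It passed without every single time point (adjusted p up to 0.00133).

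**Figure D5:**
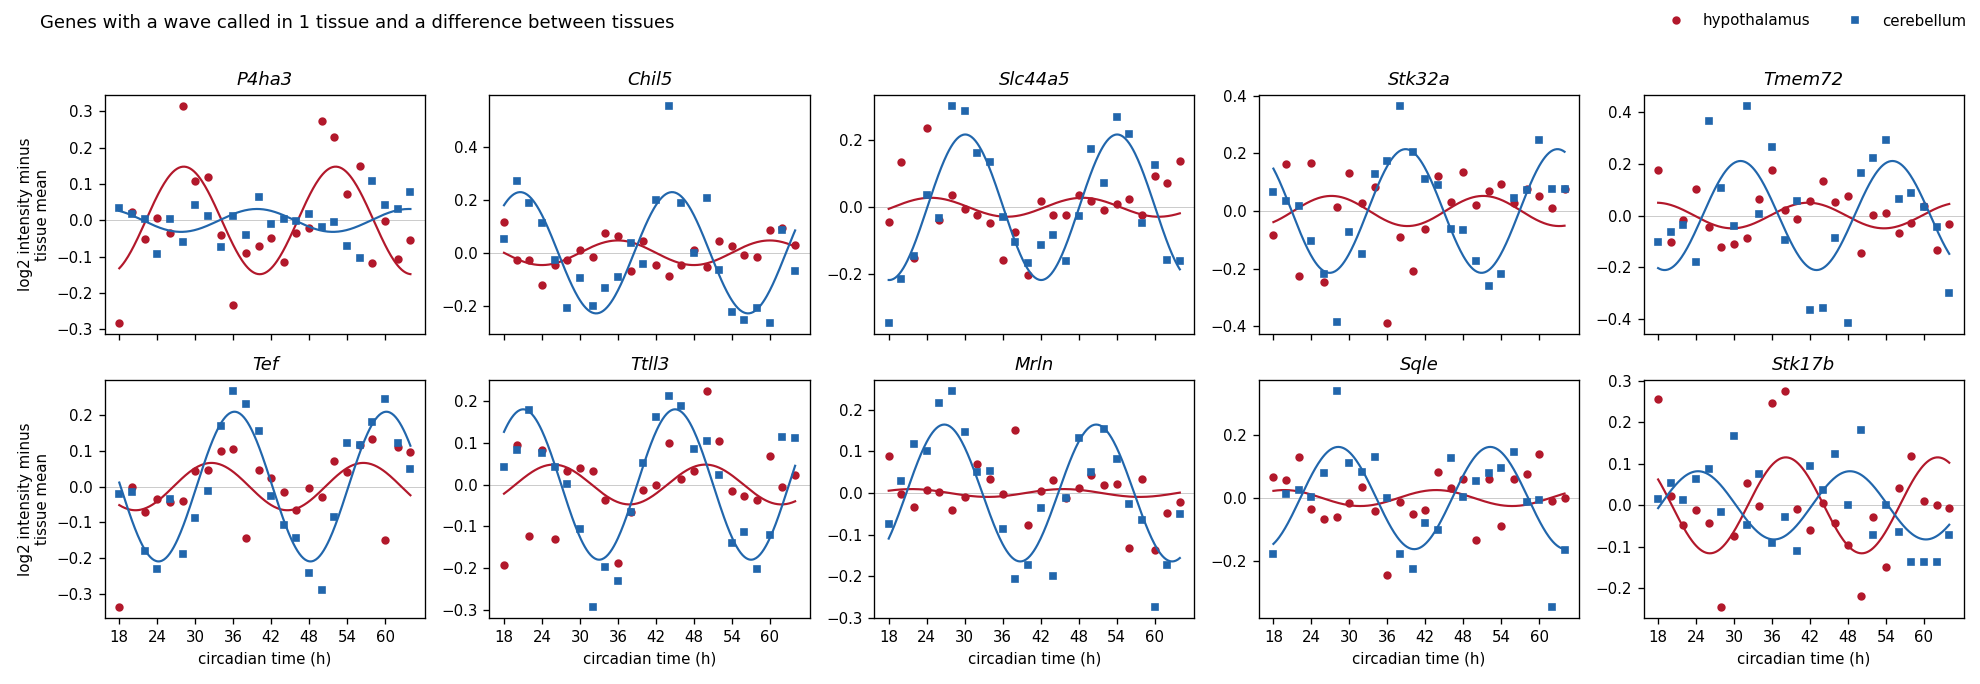
Log2 intensity minus the tissue mean against circadian time (h) for the 10 genes called in 1 region alone whose rhythm differed, with 1 point per array and lines for the fitted 24 h waves, in hypothalamus (circles) and cerebellum (squares). P4ha3 waves in hypothalamus (1.23-fold), the next 8 in cerebellum (1.25- to 1.37-fold), and Stk17b moves in opposite phase (peaks at CT14.2 and CT0.31).

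Slc44a5, of the choline transporter-like family, ran in cerebellum from 6.47 at CT18 over 6.78 to 7.11 at CT28 and in hypothalamus from 7.80 at CT40 over 8.0 to 8.24 at CT24. Its fold was 1.35 (1.26 to 1.45, peak CT6.10) in cerebellum and 1.04 (1.0 to 1.13) in hypothalamus (difference, adjusted p = 0.0078). Stk32a, a serine/threonine kinase, ran in cerebellum from 8.01 at CT28 over 8.43 to 8.76 at CT38, with a fold of 1.35 (1.26 to 1.44, peak CT14.9), and in hypothalamus it had 1.08 (1.0 to 1.20; difference, adjusted p = 0.00907). Their hypothalamus medians, 8.0 and 8.11, lay above the median of all genes there, unlike that of Chil5. Below it were also the hypothalamus medians of Mrln (6.30), Stk17b (6.47) and Tmem72 (5.23), 3 of the other cerebellum-specific genes. Without CT38 the call for Stk32a was lost (adjusted p = 0.0591). Ttll3, which adds glycine to tubulin, peaked at CT21.0 in cerebellum (1.28-fold, 1.22 to 1.35) and had 1.07-fold in hypothalamus (difference, adjusted p = 0.0313). Mrln, the micropeptide myoregulin known from muscle, peaked at CT2.78 in cerebellum (1.26-fold, 1.18 to 1.34) and had 1.01-fold in hypothalamus (difference, adjusted p = 0.0188). The call for Ttll3 was kept without 13 of 24 time points and that for Mrln without 21.

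Tmem72, a transmembrane protein, varied 1.34-fold (1.18 to 1.52, peak CT7.03) in cerebellum, from 6.07 at CT48 over 6.47 to 6.90 at CT32, and 1.07-fold in hypothalamus (difference, adjusted p = 0.0465). Choroid plexus markers, of the tissue that makes cerebrospinal fluid, moved with it. Their mean over 10 of 11 measured genes ran from 7.30 at CT48 to 8.22 at CT26 in cerebellum, with a wave of 1.35-fold that peaked at CT6.47, and from 6.22 to 6.87 in hypothalamus. With the choroid plexus and pituitary marker means as covariates, the difference for Tmem72 did not pass (adjusted p = 0.779), as for 9 others of the 14 named above. The covariate itself has the 24 h wave given above, and its part in these results beyond this fit was not tested. Slc44a5 and Tmem72 were named after their values were seen.

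Sqle encodes squalene epoxidase, a rate-limiting enzyme of cholesterol synthesis. It ran in cerebellum from 7.97 at CT62 over 8.32 to 8.65 at CT28 (1.25-fold, 1.17 to 1.34, peak CT4.25) and in hypothalamus from 9.35 at CT36 over 9.59 to 9.73 at CT60 (1.04-fold, 1.0 to 1.11; difference, adjusted p = 0.0347). The call was kept without 12 of 24 time points. Of 16 measured genes of cholesterol synthesis and uptake, 5 were called in cerebellum, 1 in hypothalamus and none in both. Among all genes the shares were 5.49%, 1.80% and 0.727%. Of the 16, 7 and 10 had an unadjusted p below 0.05 in hypothalamus and cerebellum by limma, against 17.5% and 18.9% of all genes. The median fold was 1.07 in hypothalamus and 1.11 in cerebellum. The cerebellum genes peaked in the subjective day, Sqle at CT4.25, Hmgcs1 at CT5.91, Insig1 at CT6.50, Srebf2 at CT7.39 and Fdft1 at CT8.93. The other probe set of Fdft1 was not called in cerebellum when every probe set was tested (adjusted p = 0.123). Hmgcs1 makes a precursor of mevalonate, Fdft1 makes squalene, Srebf2 is the transcription factor of the pathway and Insig1 its inhibitor. In hypothalamus Dhcr7, of the last step, peaked at CT5.47 (1.21-fold, adjusted p = 0.0171). Sqle was the 1 gene of this list that differed.

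Stk17b, a kinase linked to apoptosis, had nearly opposite fitted phases. In cerebellum it ran from 9.70 at CT58 over 9.84 to 10.02 at CT50, with a fold of 1.12 (1.06 to 1.19, peak CT0.31, adjusted p = 0.0309). In hypothalamus it ran from 6.23 at CT28 over 6.47 to 6.75 at CT38, with a fold of 1.17 (1.08 to 1.27, peak CT14.2, adjusted p = 0.0675), which missed the threshold. The rhythms differed (adjusted p = 0.0188), with peaks 10.1 h apart (difference -10.1 h, -12.8 to -7.48), and by -11.7 h and -10.3 h on the first and the second day. Its place among the cerebellum-specific genes rests on the missed hypothalamus call, which passed among the brighter genes alone (adjusted p = 0.0463). With 1 spread for both regions the hypothalamus call passed (0.00753) and the cerebellum call was lost (0.18), and with a straight line over time likewise (0.0299 and 0.108). On ranks the cerebellum call was lost too (0.10). The region in which Stk17b was called thus depended on the fit.

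Neuropeptide genes, the signature of hypothalamic neurons, had fitted waves that did not pass. Of 30 measured, none was called in either region by limma, and 9 in hypothalamus and 1 in cerebellum had an unadjusted p below 0.05. Beside this and the counts that follow stand 1.80% of all genes called in hypothalamus and 5.49% in cerebellum. At an unadjusted p below 0.05 by limma the shares of all genes were 17.5% and 18.9%. The median fold of the list was 1.135 in hypothalamus and 1.04 in cerebellum, against 1.055 and 1.044 over all genes. Hcrt, the orexin precursor of the arousal neurons, had a fitted fold of 1.35 (1.15 to 1.58, peak CT5.44, adjusted p = 0.08) in hypothalamus. Pmch, the precursor of melanin-concentrating hormone, had 1.25 (1.10 to 1.42, peak CT6.18, adjusted p = 0.0996), and it passed without the CT18 and CT36 arrays (1.28-fold, adjusted p = 0.0283). Nts, the neurotensin precursor, had 1.36 (1.14 to 1.62, peak CT21.2, adjusted p = 0.113), and Vip, a transmitter of the suprachiasmatic nucleus, 1.22 (1.09 to 1.38, peak CT14.8, adjusted p = 0.122). The hypothalamic neuron marker list, which holds Pmch, had a wave of 1.08-fold in hypothalamus with a peak at CT4.11. Its array means there ran from 8.66 to 9.55, and its part in the waves of these genes was not tested. Of 14 genes that mark the suprachiasmatic nucleus, none was called in hypothalamus, with 4 at an unadjusted p below 0.05 by limma and 1 called without both arrays that stood apart. In cerebellum 2 of them were called, the VIP receptor Vipr2 (1.22-fold, peak CT14.2) and Rgs16 (1.13-fold, peak CT13.6), a regulator of G protein signalling. The call for Rgs16 was lost with 1 spread for both regions (adjusted p = 0.665) and on ranks (0.053).

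The next counts stand beside 1.80% of all genes called in hypothalamus and 5.49% in cerebellum. At an unadjusted p below 0.05 by limma the share of all genes in hypothalamus was 17.5%. Of 24 receptors for neuropeptides and hormones, 2 were called in hypothalamus (3 without both arrays that stood apart), 2 in cerebellum and 1, Npy1r, in both. Mc4r, the melanocortin receptor that restrains feeding, was called in hypothalamus alone (1.28-fold, 1.16 to 1.42, peak CT18.9, adjusted p = 0.0159), with 1.09-fold in cerebellum and no shown difference (adjusted p = 0.351). Of 31 glutamate and GABA receptor genes, 1 was called in hypothalamus (3 without both arrays), Gabra2 (1.20-fold, peak CT21.6, adjusted p = 0.0483), and 4 in cerebellum, among them the NMDA receptor subunit Grin2c (1.13-fold, peak CT3.81). Of 30 potassium channel genes none was called in hypothalamus (1 at an unadjusted p below 0.05 by limma) and 5 were called in cerebellum, with folds of 1.07 to 1.14. Of 20 immediate early genes, which rise with neuronal activity, Jund, a subunit of the AP-1 factor, was the 1 called gene, in cerebellum (1.12-fold, peak CT8.82). In hypothalamus it had 1.20-fold with an adjusted p of 0.0539, and it passed there without both arrays that stood apart.

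Of 11 myelin genes, 6 were called in cerebellum, where 5.49% of all genes were, and 2 in hypothalamus, where 1.80% were: Opalin and Ugt8a, an enzyme of myelin lipid synthesis that peaked at CT22.0 and CT0.07. Of 7 kinases and ligases that act on clock proteins, the deubiquitinase Usp2 was shared (1.39-fold at CT11.8 and 1.17-fold at CT12.7), and Csnk1e, a kinase of PER proteins, was called in cerebellum (1.08-fold, peak CT16.6). The lists of 14 KLF factors, 14 regulators of G protein signalling and 8 genes of thyroid hormone handling each had 2 calls in cerebellum and none in hypothalamus. In hypothalamus 5, 2 and 3 of their genes had an unadjusted p below 0.05 by limma, against 17.5% of all genes. Without both arrays that stood apart, these lists had 3, 0 and 1 calls in hypothalamus. None of these genes passed the test of the difference.

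The peaks of called genes were counted in windows of 6 h. In hypothalamus 149 of the 359 peaked from CT18 to CT24 and 102 from CT6 to CT12, against 59 from CT0 to CT6 and 49 from CT12 to CT18. Without both arrays that stood apart the order changed, with 228, 233, 86 and 123 of 670 in the same windows. In cerebellum the counts were 386, 377, 197 and 134 of 1094 in the same order. The 145 shared genes divided alike, with 58, 40, 23 and 24 by their hypothalamus peaks and 57, 42, 21 and 25 by their cerebellum peaks.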

How the data were processed

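RNA from pools of 3 mice was hybridised to Affymetrix arrays. Per the submitters' processing notes, the authors used Affymetrix Expression Console and GCRMA, whose versions are not given in the sources used here. The deposited values are intensities on a linear scale, normalized for each tissue apart (lowest 6.9). The test had been planned for log2 values, so the log2 of each intensity was taken, with no pseudocount. Of 35556 probe sets, 21789 have 1 gene symbol in the platform annotation, 1621 several and 12146 none. Gene IDs of 21698 were found in RefSeq's table for GRCm38.p6 and 91 were not. For 999 genes with several probe sets, the 1 with the highest mean over all 288 arrays was used, which left 19938 genes.

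A 24 h cosine and sine were fitted in each tissue with limma 3.58.1 in R 4.3.3, with a moderated F test. The difference test compared the 2 coefficients between tissues, with each tissue's own moderated variance and Satterthwaite degrees of freedom. Both were adjusted by Benjamini-Hochberg over all 19938 genes. A gene was shared when called in both tissues, specific when called in 1 with the difference called, and shifted or of other wave size when shared with the difference called and a 95% interval for that measure that excluded 0. Peaks were also fitted on each day alone. There are no replicates at a time point, so the p-values measure the spread of pools around a wave. Precision is limited by having 24 arrays per tissue. The procedure was tested on simulated data.

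The genes chosen for naming are all measured clock list genes, not all of which are printed here, and the specific, shared and shifted genes with the largest folds or gaps. The mean of a specific gene had to lie above the median of all genes in its region, and that of a shared or shifted gene in either region. Up to 4 members of each other list by the p of the difference, and counts of 5 or fewer, were added. Other list members were named after their values were seen. The comparison, the 22 function lists (287 of 308 genes measured), the 18 marker lists (128 of 147) and the rules were chosen with earlier results of these data known. Alternatives were the spread, pairing by time point, a straight line, array weights, quantile normalization, a filter on dim genes, added 12 h and 8 h waves, marker covariates, arrays that stood apart, single time points, other probe sets and ranks. Arrays were not treated as paired by time point: residuals of the 24 pairs correlated between -0.295 and 0.315.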

Additional observations from a re-analysis of the deposited data

Results flagged for a closer look

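The waves of 14 genes differed between hypothalamus and cerebellum by the test of the difference itself, limma coefficients compared across the tissues with adjustment over all 19938 genes. Among clock genes the adjusted p was 0.00366 for Arntl, 0.0037 for Per2, 0.0185 for Ciart and 0.026 for Tef, each with the larger fitted wave in cerebellum. The peak was later in cerebellum for Arntl, Per2 and Ciart, and Tef was not called in hypothalamus (adjusted p = 0.34). For the metallothionein Mt2, with the earlier peak in hypothalamus, it was 0.00239. For P4ha3, with a call in hypothalamus alone, it was 0.0256. For genes called in cerebellum alone, the adjusted p was 0.000256 for Chil5, 0.0078 for Slc44a5, 0.00907 for Stk32a, 0.0188 for Mrln, 0.0188 for Stk17b, 0.0313 for Ttll3, 0.0347 for Sqle and 0.0465 for Tmem72. Of these 14 genes, 10 had peaks on the 2 days within 4 h of each other in both tissues. The fits per day used the same arrays as the test, so this count is a description and not a replication. Where a wave was not called in a tissue, its peak time there is poorly defined.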

How the results depend on the processing

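With 1 spread for both tissues, 1794 genes were called in hypothalamus, 434 in cerebellum and 2 were hypothalamus-specific, so the order of the tissues turned. Array weights gave 1121 hypothalamus calls, 75 differing, 359 shared, 26 hypothalamus-specific, 36 cerebellum-specific and 9 shifted genes and 7 that differed in wave size. Choroid plexus and pituitary marker covariates gave 158 calls in hypothalamus, 390 in cerebellum, 47 shared, 5 differing, 0 hypothalamus-specific, 2 cerebellum-specific and 2 shifted genes. Without the CT18 and CT36 arrays of hypothalamus there were 670 hypothalamus calls, 230 shared, 24 differing, 3 hypothalamus-specific and 16 cerebellum-specific genes. A straight line over time gave 26 differing, 3 hypothalamus-specific and 18 cerebellum-specific genes. Ranks gave 233 hypothalamus calls, 432 cerebellum calls and 46 shared genes. Without the dimmer genes, P4ha3, Chil5, Mrln and Tmem72 were not tested, 0 genes were hypothalamus-specific and 5 cerebellum-specific. The hypothalamus-specific count was 4 with quantile normalization, 3 with added 12 h and 8 h waves and 2 with all probe sets. The thalamus marker covariate, chosen after seeing the data, gave 12 differing genes, 10 of the 14 among them. Apart from the dimmer genes left out, the cause of these moves was not tested.

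The labels tie arrays across tissues by time point alone, and whether they share mice is unknown. The median correlation of paired residuals was 0.0729, with 11 of 24 pairs above 0.1, and 3 arrays correlated best with their own time. With the time point as a block, 10 genes differed, 8 of the 14 among them, and 5 were cerebellum-specific. The calls lost under the block were those of Tef (adjusted p = 0.0669), Stk17b (0.0669), Mrln (0.0667), P4ha3 (0.0751), Sqle (0.0751) and Tmem72 (0.128).

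With each time point left out in turn, the counts ran from 219 to 444 in hypothalamus, 837 to 1132 in cerebellum, 98 to 160 shared, 6 to 25 differing, 0 to 3 hypothalamus-specific, 2 to 15 cerebellum-specific, 3 to 6 shifted and 2 to 5 of other wave size. Hypothalamus calls were 229 without CT28, 231 without CT52 and 219 without CT54. Cerebellum-specific genes were 4 without CT28, 15 without CT36 and 2 without CT38. P4ha3 was lost without CT18, CT28, CT50, CT52, CT54 or CT56. Over the named genes and alternatives, 3550 of 3726 calls were the same, 110 were lost and 66 gained. The design has 1 pool per time point, intensities near the lowest values carry little signal, and levels normalized apart cannot be compared between tissues.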

Other observations

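The 13767 probe sets with no gene symbol or with several were tested apart with limma in the same way. Of these, 4 were called in hypothalamus and 29 in cerebellum. None was called in both (265 had an unadjusted p below 0.05 in each tissue), and none differed between the tissues after adjustment (825 at an unadjusted p below 0.05). They are not named here.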
